A study of Mus musculus with 21 samples.

Results

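The nuclear-encoded subunits of the mitochondrial oxidative phosphorylation system were examined in cystatin B-deficient (Cstb-/-) and wild type mouse cerebellum and cultured cerebellar granule cells. Members were the probe sets whose single gene symbol begins with Nduf, Uqcr, Atp5 or Cox4 to Cox8, or is Sdha, Sdhb, Sdhc, Sdhd or Cyc1. This gave 180 probe sets of 91 genes among 45037 probe sets tested on the Affymetrix Mouse Genome 430 2.0 array. Of the 91 genes, 40 had 1 probe set and 51 had several, with 6 at most. By complex there were 76 probe sets of 34 complex I subunit genes, 10 of 8 complex I assembly factor genes that share the Nduf prefix, 9 of 4 complex II genes, 17 of 9 complex III genes, 37 of 19 complex IV genes and 31 of 17 complex V genes. Ndufa4 and Ndufa4l2 were counted with complex IV, where the Ndufa4 protein is now placed. A further 10 probe sets carried several symbols of which 1 matched, and were not members.

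Cstb encodes cystatin B, an inhibitor of lysosomal cysteine proteases, whose loss in humans causes progressive myoclonus epilepsy of Unverricht-Lundborg type. All mice were of the 129SvJ background. Knockout mice carried the Cstb tm1Rm allele on both chromosomes and controls were wild type littermates. Cerebella came from pre-symptomatic mice at postnatal day 7 (P7, 4 Cstb-/- and 4 wild type arrays) and from symptomatic mice at P30 (3 Cstb-/- and 3 wild type arrays). Granule cells were taken from P5 cerebella freed of meninges and kept for 2 days in culture with cytosine arabinoside, an inhibitor of dividing cells (3 Cstb-/- and 4 wild type arrays). The labels do not say whether each culture came from its own animals, so the p-values measure the spread between these arrays, which may be technical. The number of arrays limits the precision.

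Oxidative phosphorylation couples the oxidation of NADH and succinate to ATP synthesis in the inner mitochondrial membrane. Complex I (NADH dehydrogenase) and complex II (succinate dehydrogenase) pass electrons to ubiquinone, complex III passes them to cytochrome c and complex IV (cytochrome c oxidase) to oxygen. Complex V, the ATP synthase, uses the resulting proton gradient. Most subunits are encoded in the nucleus and a few in mitochondrial DNA, and neurons depend on the pathway for most of their ATP.

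The deposited values are log2 intensities centred on the median of each probe set within an experiment. They hold differences between arrays but no levels, so the presence of defining markers of the labelled tissue could not be examined and genes are not ranked by abundance. Array values below are log2, relative to the mean of the wild type arrays of the same experiment. A probe set was called where the fold was at least 1.3 (0.38 on the log2 scale) at an adjusted p under 0.05 in cerebella or under 0.01 in granule cells, the thresholds of the study, by limma with Benjamini-Hochberg adjustment over all 45037 probe sets.

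Cstb itself was lower in every Cstb-/- array, with differences for its 2 probe sets of -3.10 and -2.31 (log2) at P7, -2.70 and -2.77 at P30 and -2.08 and -1.86 in granule cells. Cstb-/- array 5 of the P7 set stood apart with a mean of 3.39 (log2) over the 18S rRNA control probe sets, against -0.40 to 0.64 in the other P7 arrays. At P7, 3 of 4 Cstb-/- and 1 of 4 wild type arrays were labelled male. In granule cells the X-inactivation transcript Xist and the Y-linked Eif2s3y went against the labelled sex in Cstb-/- arrays 1 and 2, and wild type arrays 7 and 8 held both transcripts. At P30, Cstb-/- array 1 was labelled female although neither transcript set it apart from the other 5 arrays.

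At P7 none of the 180 members was called, against 0.00666% of all probe sets in limma, and 5 members (2.78%) had an unadjusted p under 0.05 (2 higher, 3 lower) against 9.45% of all. The members were balanced in direction, with 91 above (50.6%, against 53.7% of all probe sets) and 89 below wild type. Their median difference was 0.00054 (log2), beside 0.010 over all probe sets. Differences ran from -0.40 to 0.28. For 160 of 180 members (88.9%) the 95% confidence interval lay wholly within a fold of 1.3 in either direction, against 77.9% of all probe sets. The median half-width of that interval over the members was 0.16 (log2). Arrays of the genotypes did not overlap for 9 members (5.0%), 5 above and 4 below, against 5.65% of all probe sets. Cell type composition and RNA per cell cannot be told apart in such bulk samples.

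Ndufv1 carries the flavin site of complex I, where NADH is oxidised. At P7 its probe set 1415966_a_at had values of 0.065, 0.19, 0.19 and 0.10 in Cstb-/- cerebella, against -0.029, 0.063, -0.061 and 0.027 in wild type. The groups did not overlap, by the narrowest of margins, and the difference of 0.14 ± 0.067 (SE) had an adjusted p of 0.55 in limma. No other complex I probe set had every Cstb-/- array above wild type. For Ndufc2, a subunit of the membrane arm, 1455036_s_at was at -0.074, -0.074, -0.10 and -0.23 in Cstb-/- cerebella. In wild type it was at -0.024, -0.0072, 0.10 and -0.070 (-0.12 ± 0.070, adjusted p = 0.61). The assembly factor Ndufaf8 (1448003_at) had a difference of 0.16 ± 0.068 and Ndufaf6 one of -0.16 ± 0.087, with adjusted p-values of 0.52 and 0.58. For both Ndufc2 and Ndufaf6 the lowest array was Cstb-/- array 5, the one with the high 18S signal.

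The remaining complexes at P7 gave differences of similar size. In complex II the smallest unadjusted p, 0.094, belonged to 1437489_x_at of Sdhd, the membrane anchor, at -0.28, -0.15, -0.084 and -0.43 in Cstb-/- and -0.24, 0.013, 0.38 and -0.16 in wild type cerebella. The groups overlapped, with a difference of -0.24. With labelled sex, which is unbalanced between the genotypes, as a covariate the difference was -0.43 (adjusted p = 0.046), and that of Uqcrb (1416337_at) was -0.39 (0.048), against -0.21 without it. No other member was called in that fit, and the share of members called lay below that of all probe sets. In complex III, 1434341_x_at of Uqcr10 was at 0.16, 0.13, 0.19 and 0.062 in Cstb-/- and -0.00020, -0.020, -0.029 and 0.050 in wild type cerebella. The difference was 0.14 ± 0.064 (adjusted p = 0.54). In complex IV the structural subunits Cox5b (1448514_at, 0.16 ± 0.069) and Cox6c (1434491_a_at, -0.18 ± 0.074) lay without overlap on opposite sides of 0, with adjusted p-values of 0.52 and 0.50. Atp5e, the epsilon subunit of the ATP synthase, differed by 0.13 ± 0.075 (adjusted p = 0.60) with overlapping arrays. No complex stood out: the medians were -0.0046 for complex I, -0.056 for its assembly factors, 0.023 for complex II, 0.032 for complex III, 0.014 for complex IV and 0.0076 for complex V.

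The largest P7 difference was that of 1425919_at for Ndufa12, an accessory subunit of complex I, which was singled out after its values were seen. Its values were -0.57, -0.34, -0.33 and -0.37 in Cstb-/- cerebella, against -0.38, 0.0086, 0.38 and -0.0058 in wild type. One wild type array lay among the Cstb-/- arrays, and the difference of -0.40 ± 0.13 had an adjusted p of 0.43. In the same Cstb-/- cerebella oligodendrocyte markers had a median difference of 0.49 and markers of mature granule neurons one of 0.25, while choroid plexus markers were at -1.68. Array means of these lists were 0.39 to 0.81, 0.24 to 0.41 and -2.32 to -0.25 in Cstb-/- arrays, against -0.24 to 0.21, -0.043 to 0.049 and -0.17 to 0.11 in wild type arrays. At an unadjusted p under 0.05 there were 21 of 26 oligodendrocyte probe sets and 8 of 19 granule neuron probe sets above wild type, and 14 of 19 choroid plexus probe sets below. Their part in the differences of the members was not tested.

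**Figure D1:**
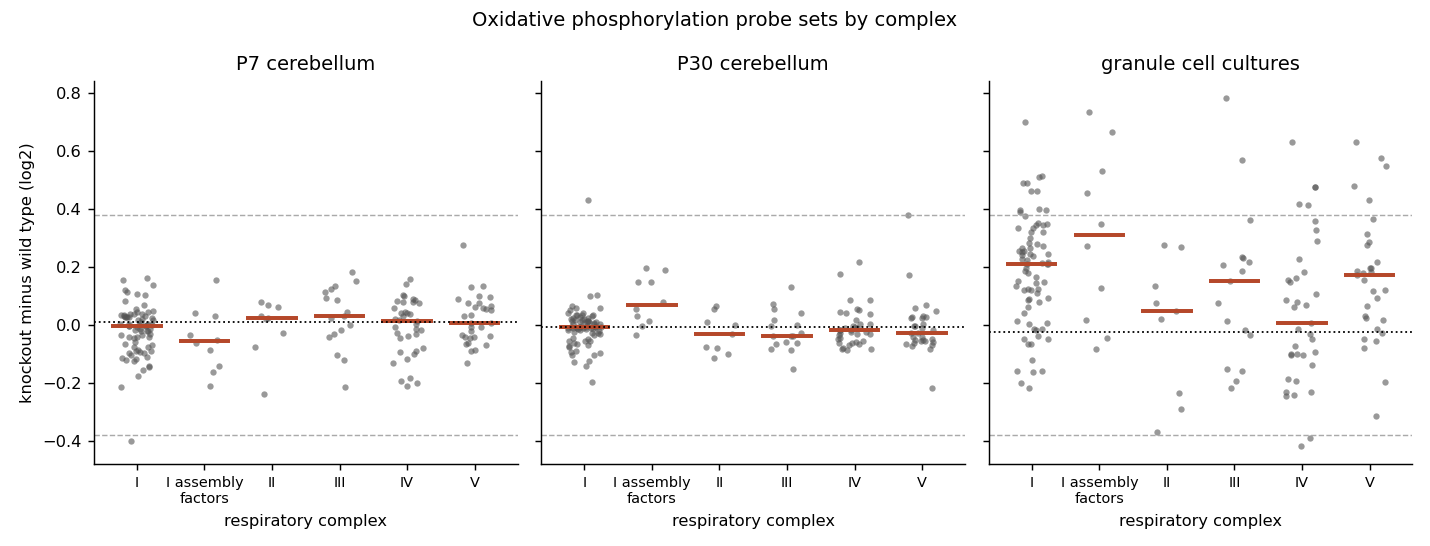
Difference between Cstb-/- and wild type (log2, y axis) for each of the 180 member probe sets, grouped by respiratory complex (x axis) in P7 cerebellum, P30 cerebellum and granule cell cultures. Red bars are the medians of the groups, the dotted line the median of all probe sets tested and the dashed lines a fold of 1.3 up or down. In the cerebella the points cluster around 0. In the granule cells the median of complex I is 0.21 and that of complex IV, with its isoforms of restricted tissues, 0.0073. Without these isoforms the complex IV median is 0.087.

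At P30, when the mice are symptomatic, again none of the 180 members was called, against 0.144% of all probe sets. At an unadjusted p under 0.05 in limma there were 4 members (2.22%, 3 higher and 1 lower), against 7.72% of all. The median difference was -0.0091 (log2), beside -0.0078 over all probe sets. Above wild type lay 74 members (41.1%, against 47.0% of all probe sets), and 106 lay below. The interval lay within a fold of 1.3 for 166 members (92.2%), against 81.1% of all probe sets. Arrays did not overlap for 15 members (8.33%), 2 with every Cstb-/- array above and 13 with every one below, against 12.5% of all probe sets. Over all probe sets the directions were even, with 2809 above and 2813 below.

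The members without overlap at P30 differed by little. Ndufa10, an accessory subunit of complex I (1448934_at), was at -0.11, -0.17 and -0.10 in Cstb-/- cerebella, against 0.0064, -0.033 and 0.026 in wild type (-0.13 ± 0.067, adjusted p = 0.71). Ndufaf8 (1448003_at) was at 0.087, 0.096 and 0.055 in Cstb-/- and -0.023, -0.023 and 0.046 in wild type cerebella, with an adjusted p of 0.81. It was named at both ages as the highest assembly factor probe set without overlap, so its shared sign is no support for a difference. For the other probe set of Ndufaf8 not every Cstb-/- array lay above wild type at either age. Cox8a, a small subunit of complex IV, gave -0.083 ± 0.069 by 1436409_at and the ATP synthase subunit Atp5d -0.082 ± 0.066 by 1456580_s_at, with adjusted p-values of 0.81 for each. Atp5e lay above wild type, at 0.19, 0.22 and 0.11 in Cstb-/- cerebella and -0.10, 0.022 and 0.078 in wild type (0.17 ± 0.077, adjusted p = 0.65).

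By complex the P30 medians were -0.0067 for complex I, 0.068 for its assembly factors, -0.032 for complex II, -0.037 for complex III, -0.018 for complex IV and -0.027 for complex V. For the assembly factors the array medians overlapped at both ages. At P7 they were 0.013, -0.019, 0.029 and -0.24 in Cstb-/- and -0.034, -0.029, 0.13 and -0.054 in wild type cerebella, the low value being that of Cstb-/- array 5, and at P30 0.082, 0.052 and 0.11 in Cstb-/- and -0.15, -0.034 and 0.20 in wild type cerebella.

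In complexes II and III no member was without overlap at P30. The smallest unadjusted p-values were 0.19 for Sdha, the flavoprotein subunit of succinate dehydrogenase (1433292_at, -0.10 ± 0.071), and 0.17 for Uqcr10 (1434340_at, 0.13 ± 0.087). Past a fold of 1.3 without an adjusted p under the threshold were 1428160_at of Ndufab1, the mitochondrial acyl carrier protein, and 1420037_at of Atp5a1, the alpha subunit of the ATP synthase, both named after their values were seen. Ndufab1 was at 0.021, 0.38 and 0.90 in Cstb-/- and -0.095, -0.082 and 0.18 in wild type cerebella, so 1 array carried most of the difference of 0.43 ± 0.19 (adjusted p = 0.65). Atp5a1 was at 0.29, 0.21 and 0.64 in Cstb-/- and 0.025, -0.30 and 0.28 in wild type cerebella, with overlap (0.38 ± 0.16, adjusted p = 0.62). Microglia and macrophage markers had a median difference of 0.62 in the same arrays, with 13 of 23 probe sets called and array means of 0.83 to 1.03 in Cstb-/- against -0.11 to 0.10 in wild type cerebella. Choroid plexus markers had a median of -0.80, with 18 of 19 probe sets below wild type and none called. Their array means were -2.39, 0.60 and -2.29 in Cstb-/- and -0.58 to 0.60 in wild type cerebella. Astrocyte markers had a median of 0.18, with 30 of 33 probe sets above wild type and 3 called, all of Gfap. The part of these cells was not tested.

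Between the ages no member was found with a different genotype effect. The interaction test (limma, all 6 groups) gave 0 of 180 members at an adjusted p under 0.05, against 0.124% of all probe sets. With so small a share over the whole array, the count says nothing particular about the members. The median difference of the effects over the members (P30 minus P7, log2) was -0.0010. The smallest adjusted p was 0.50.

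In the granule cell cultures the members were shifted upwards. The median difference was 0.15 (log2), beside -0.025 over all probe sets, and 130 of 180 members (72.2%) lay above wild type, against 45.5% of all probe sets. The median over the members was 0.11, 0.097 and 0.22 in the Cstb-/- arrays, against 0.014, -0.014, 0.0048 and 0.0028 in the wild type arrays, without overlap. The shift was small for single members. At the study's thresholds 1 member (0.556%) was called, upwards, against 2.54% of all probe sets called and 2.07% called upwards in limma, a share below the background.

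With a fold of 1.3 and an adjusted p under 0.05, 14 members (7.78%) were higher and none lower, against 6.83% and 2.21% of all probe sets. The upward share is thus near the background, and the members differ from the array as a whole in their direction and median. Past a fold of 1.3 alone there were 27 members of 180 above wild type (against 12.1% of all) and 2 below. At an unadjusted p under 0.05 there were 65 above and 3 below, together 37.8% against 31.6% of all. Every Cstb-/- array lay above every wild type array for 54 members (30.0%, against 13.4% of all probe sets), and none had every Cstb-/- array below. Without overlap in either direction were 22.8% of all probe sets.

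**Figure D2:**
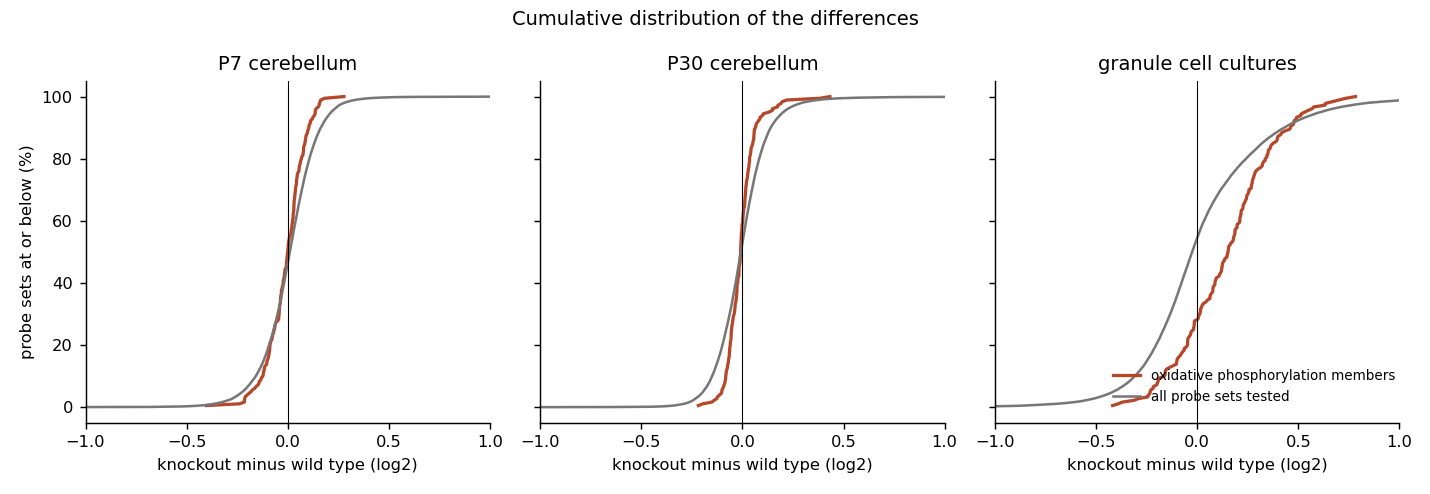
Cumulative share of probe sets (%, y axis) at or below a given difference between Cstb-/- and wild type (log2, x axis, cut at 1 on either side) for the 180 members (red) and all 45037 probe sets tested (grey) in each experiment. In the cerebella the member curve is the steeper of the pair around 0, and in granule cells it is displaced to the right, with a median of 0.15 against -0.025.

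The called member was Ndufaf1, a chaperone that assembles the membrane arm of complex I (1423711_at). Its values were 0.62, 0.59 and 0.79 in Cstb-/- cultures, against 0.19, -0.11, -0.057 and -0.020 in wild type. The difference was 0.67 ± 0.095 (SE, n = 3 and 4), a fold of 1.59, with an adjusted p of 0.0057 in limma. The call was lost when any of Cstb-/- arrays 1 and 3 or wild type arrays 5, 7 and 8 was left out, with adjusted p-values of 0.019 to 0.029, while the difference stayed between 0.61 and 0.73 over all 7 such fits. By the methods' test the adjusted p was 0.050, also short of the call. Ndufaf2, which acts late in complex I assembly and is related to Ndufa12, was at 0.96, 0.35 and 0.89 in Cstb-/- and 0.35, 0.018, -0.23 and -0.14 in wild type cultures (0.73 ± 0.18, adjusted p = 0.040). Its lowest Cstb-/- array and its highest wild type array were nearly equal. Over the 10 assembly factor probe sets 8 lay above wild type, 5 with no overlap, and the median was 0.31, the highest of the 6 groups. Ndufaf7, a methyltransferase needed for complex I assembly, gave 0.46 ± 0.11 (adjusted p = 0.033), Ndufaf6 0.53 ± 0.18 (0.097) and Ndufaf5 0.35 ± 0.12 (0.10), whereas Ndufaf3 was at 0.016 ± 0.063.

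Among the complex I subunits 62 of 76 probe sets lay above wild type, with a median of 0.21, and 29 had no overlap. The array medians were 0.18, 0.12 and 0.29 in Cstb-/- cultures, against 0.051, -0.023, -0.0035 and 0.018 in wild type. Ndufb6, an accessory subunit of the membrane arm, had the largest difference (1434056_a_at), with 0.92, 0.45 and 0.73 in Cstb-/- and 0.19, -0.20, 0.0099 and 0.0010 in wild type cultures. The groups were well apart and the difference was 0.70 ± 0.13, a fold of 1.63, with an adjusted p of 0.015, past 0.01. Its other probe set gave 0.35 ± 0.12. Further complex I probe sets past a fold of 1.3 at an adjusted p under 0.05 were those of Ndufab1 (1428159_s_at, 0.51, adjusted p = 0.018), of Ndufs4, whose loss in human and mouse causes Leigh-like disease (1438166_x_at, 0.51, 0.023), and 2 of Ndufa12 (0.46 and 0.39, 0.024 and 0.027).

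Split into the catalytic core and the supernumerary subunits, a grouping made after the values were seen, complex I was shifted in both. The 16 probe sets of 6 core subunits (Ndufv1, Ndufv2, Ndufs1, Ndufs3, Ndufs7 and Ndufs8) had a median of 0.24 with 14 above wild type, and the 60 probe sets of 28 supernumerary subunits one of 0.21 with 48 above. Some subunits lay near or below 0. The 3 probe sets of Ndufb2 gave -0.22, -0.065 and -0.048, those of Ndufb8 0.078 and -0.048, and Ndufv3 was at -0.014.

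**Figure D3:**
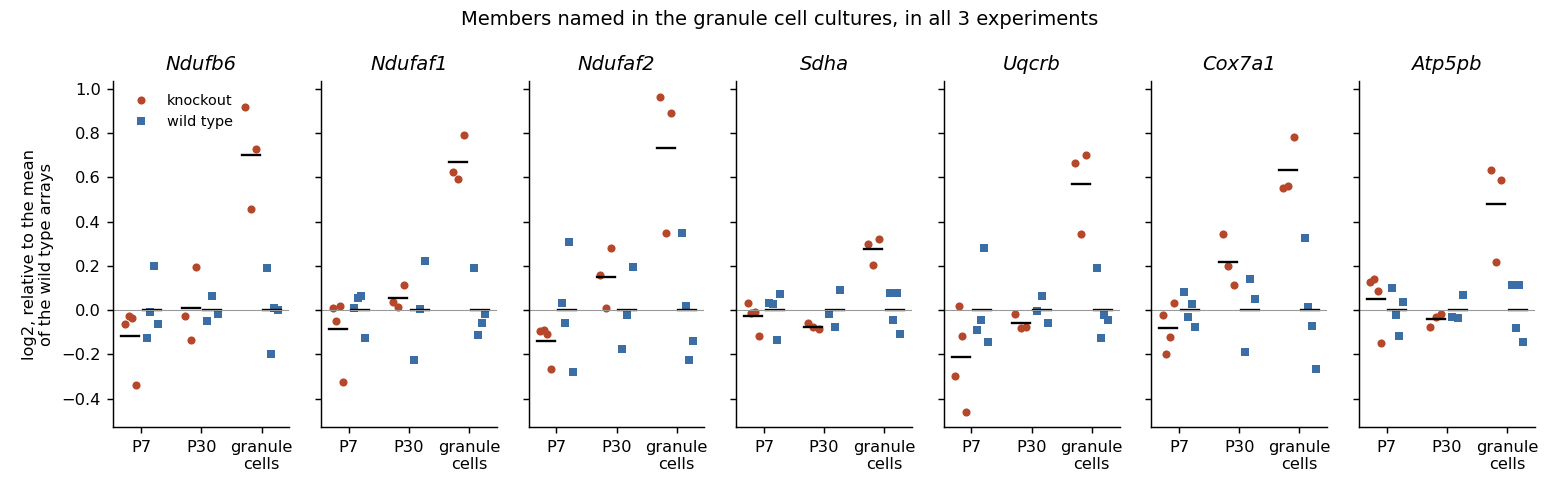
Log2 values relative to the mean of the wild type arrays (y axis) for 7 members in P7 cerebellum, P30 cerebellum and granule cell cultures (x axis), with Cstb-/- arrays as red circles on the left, wild type arrays as blue squares on the right and the group means as black bars. The probe sets were chosen for separation of the genotypes in granule cells, so only their spread there and their overlap in both cerebella are to be read from the plot.

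Complex II, the only complex without a subunit encoded in mitochondrial DNA, gave a mixed picture. Its 9 probe sets had a median of 0.049 with 6 above wild type. Sdha by 1426688_at was at 0.30, 0.20 and 0.32 in Cstb-/- cultures, against 0.076, -0.046, 0.079 and -0.11 in wild type (0.27 ± 0.079, adjusted p = 0.062). A second probe set also gave 0.27, with overlap, while 1433292_at and 1433293_at of the same gene lay at -0.23 and -0.37. For Sdhc, 1435986_x_at was at -1.09 in Cstb-/- array 3 alone.

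In complex III the median was 0.15 and 11 of 17 probe sets lay above wild type. Uqcrb, which helps to form the ubiquinone-binding site (1416337_at), was at 0.67, 0.34 and 0.70 in Cstb-/- and 0.19, -0.13, -0.022 and -0.044 in wild type cultures. The groups did not overlap, and the difference was 0.57 ± 0.11 (adjusted p = 0.021). Its other probe set, 1455997_a_at, lay at -0.22. The largest difference of any member, 0.78 ± 0.22, was that of 1435757_a_at for the core protein Uqcrc2, with 1.20, 0.22 and 0.93 in Cstb-/- and 0.25, -0.24, 0.0032 and -0.0068 in wild type cultures. Cstb-/- array 2 lay below wild type array 4 there, and the adjusted p was 0.059. The electron carriers of the complex, the Rieske protein Uqcrfs1 and cytochrome c1 (Cyc1), had differences of 0.24 and 0.15, both with every Cstb-/- array above wild type.

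Complex IV as a group was not shifted by much, with a median of 0.0073 and 19 of 37 probe sets above wild type. This median covers 10 probe sets of isoforms of restricted tissues, treated below, with a median of -0.16 and 9 below wild type. The other 27 probe sets had a median of 0.087, with 18 above wild type and 9 below. For 8 of the 27 every Cstb-/- array lay above every wild type array. At an unadjusted p under 0.05 in limma 9 of the 27 were higher and 1 lower. The array medians of all 37 probe sets were -0.081, 0.096 and 0.10 in Cstb-/- cultures, against -0.0072, 0.011, 0.016 and 0.0055 in wild type. Cstb-/- array 1 thus lay apart from the other Cstb-/- arrays. Cstb-/- array 1 also had the lowest mean over the 18S rRNA control probe sets, -1.07, against -0.33 to 0.49 in the other 6 cultures. The nuclear subunit Cox5a gave 0.48 by 1415933_a_at and 0.33 by 1439267_x_at (adjusted p = 0.024 and 0.038), neither past 0.01. Cox7c (1459884_at) and Cox6c (1434491_a_at) gave 0.41 and 0.48 with adjusted p-values of 0.075 and 0.078. At the other end the 3 probe sets of Cox8a lay at -0.39, -0.24 and -0.098, with -0.97, 0.14 and -0.34 in Cstb-/- and -0.24, 0.18, 0.057 and 0.0055 in wild type cultures for 1448222_x_at, where the groups overlapped.

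Probe sets of Cox5b disagreed most. Of its 6 probe sets, 1454716_x_at gave 0.42 ± 0.086 (adjusted p = 0.023), with 0.50, 0.24 and 0.51 in Cstb-/- and -0.0056, -0.050, 0.045 and 0.011 in wild type cultures. In contrast 1436149_at gave -0.42 ± 0.14 (0.092), with -0.68, -0.10 and -0.47 in Cstb-/- and -0.10, -0.10, 0.0090 and 0.20 in wild type cultures. No direction can be given for the gene. Over the 91 genes, the mean of the probe sets of a gene lay above wild type for 74. Of the 51 genes with several probe sets, 24 had all above, 4 all below and 23 on both sides of 0.

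Cytochrome c oxidase has subunits with isoforms of restricted tissues, among them Cox6a2, Cox7a1 and Cox8b of heart and skeletal muscle and Cox6b2, Cox7b2 and Cox8c of testis. Of 10 probe sets for 8 such genes, Cox4i2 and Ndufa4l2 included, 9 lay below wild type in granule cells and 1 above, with a median of -0.16, none of the 9 called. Cox7a1 was the exception, at 0.55, 0.56 and 0.78 in Cstb-/- and 0.33, 0.013, -0.074 and -0.27 in wild type cultures (0.63 ± 0.14, adjusted p = 0.027). Its ubiquitous counterpart Cox7a2 gave 0.18 and 0.0073 by 2 probe sets and the related Cox7a2l, which takes part in supercomplex assembly, 0.36, 0.29 and 0.15. In the cerebella Cox7a1 differed by -0.079 ± 0.074 at P7 and 0.22 ± 0.10 at P30 (adjusted p = 0.75 and 0.66). Muscle markers had a median of -0.15 in the cultures with none of 15 called. For the other pairs the values in granule cells were 0.071 for Cox4i1 and -0.14 for Cox4i2, 0.087 and -0.073 for Cox6a1 and -0.23 for both probe sets of Cox6a2, 0.16 and -0.10 for Cox6b1 and -0.10 for Cox6b2, -0.19 for Cox8b and -0.032 for Ndufa4 against -0.10 for Ndufa4l2.

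In the ATP synthase 24 of 31 probe sets lay above wild type, with a median of 0.17. Atp5pb, subunit b of the peripheral stalk (1426742_at), was at 0.63, 0.22 and 0.59 in Cstb-/- and 0.11, -0.081, 0.11 and -0.14 in wild type cultures (0.48 ± 0.12, adjusted p = 0.043). Grouped after the values were seen, all 7 probe sets of the peripheral stalk genes Atp5pb, Atp5h, Atp5j and Atp5o lay above wild type with a median of 0.31. The 9 probe sets of the catalytic F1 part had a median of 0.15, and the 9 of the small membrane subunits Atp5k, Atp5l, Atp5j2, Atp5md and Atp5mpl one of -0.015. The c ring is encoded by Atp5g1, Atp5g2 and Atp5g3, whose mature proteins are identical. Of these, 1415980_at of Atp5g2 was at 0.34, 0.50 and 0.46 in Cstb-/- and -0.0085, -0.084, 0.10 and -0.0091 in wild type cultures (0.43 ± 0.078, adjusted p = 0.014), while its other 2 probe sets gave 0.17 and -0.029. Atp5g1 gave 0.29 and 0.024, and Atp5g3 0.064. In the cerebella no c ring probe set differed by more than 0.099 in size.

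The genotype effects of granule cells and P7 cerebellum were compared directly in 1 model. At an adjusted p under 0.05 in limma, 42 members (23.3%) had a higher effect in granule cells and 1, of Cox5b, a lower one. Over all probe sets 20.3% differed in either direction and 13.0% upwards. By complex the 42 comprised 19 of 76 in complex I, 5 of 10 assembly factors, 1 of 9 in complex II, 4 of 17 in complex III, 8 of 37 in complex IV and 5 of 31 in complex V. Ndufa12 by 1425919_at had a contrast of 0.80 (adjusted p = 0.0060), with an effect of 0.40 in the cultures and -0.40 in P7 cerebellum. That probe set was picked for its P7 difference, which enters the contrast, so its adjusted p is no support for a difference. For the members named in granule cells, which were chosen for large differences there without overlap, the effects in the cerebella are set beside those in the cultures as a description. Ndufb6 differed by 0.70 in the cultures and by -0.12 at P7 and 0.011 at P30, Ndufaf1 by 0.67 and by -0.088 and 0.056, and Ndufaf2 by 0.73 and by -0.14 and 0.15. For Uqcrb the effect was 0.57 in the cultures, -0.21 at P7 and -0.059 at P30, and for Sdha it was 0.27, -0.027 and -0.074. The arrays of the genotypes overlapped in both cerebella for each of the 5. Cultures and cerebella differ in age, cell content and handling, which cannot be told apart.

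**Figure D4:**
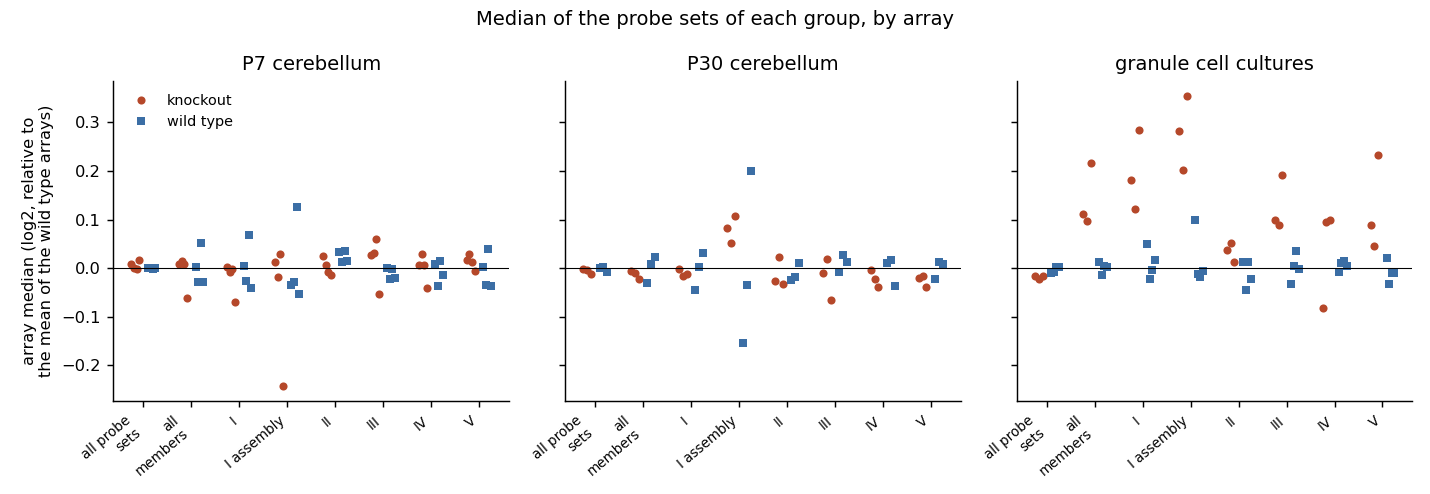
Median over the probe sets of each group for every array (log2 relative to the mean of the wild type arrays, y axis) in the 3 experiments, with Cstb-/- arrays as red circles on the left and wild type arrays as blue squares on the right of each group (x axis). In granule cells the 3 Cstb-/- arrays lie above the 4 wild type arrays for all members, for complexes I, III and V and for the complex I assembly factors. The complex IV median of Cstb-/- array 1 lies at -0.081.

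The arrays of a genotype were not alike in the cultures. Among the 65 members above wild type at an unadjusted p under 0.05, Cstb-/- array 2 was the lowest of the Cstb-/- arrays for 52, and wild type array 4 the highest of the wild type arrays for 34. Without Cstb-/- array 2, 14 members (7.78%) were called upwards at the study's thresholds, 7 of them in complex I, but 5.96% of all probe sets were then called as well, 4.85% upwards. Without wild type array 4 the number was 1, against 1.89% of all. Leaving out the 4 arrays whose sex transcripts went against their labels left 1 Cstb-/- and 2 wild type arrays, with a median over the members of 0.22. None of the 45037 probe sets was called with so few arrays, so the count says nothing about the members. For 72 of 180 members at least 2 culture arrays had the same deposited value, against 2 at P7 and 1 at P30. The part of these ties in the result was not tested. The shift also varied with the kind of probe set. The 39 members whose identifier ends in _a_at, which read several transcripts of 1 gene, had a median of 0.25 and the 48 ending in _x_at or _s_at, whose probes can match other genes, one of 0.19, while the 93 ending in _at alone had a median of 0.092 with 59 above wild type.

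Related mitochondrial gene lists had medians of the same sign in granule cells. Other assembly factors of the respiratory complexes had a median of 0.18 with 51 of 62 probe sets above wild type and 2 called, against 2.54% of all probe sets. Both rose: Cox20, a chaperone of a mitochondrially encoded complex IV subunit, by 0.62 ± 0.086 (adjusted p = 0.0051), and Sdhaf4, which assembles Sdha into complex II, by 0.42 ± 0.066 (0.0086). Cox20 was at 0.76, 0.53 and 0.57 in Cstb-/- and 0.06, -0.12, 0.04 and 0.02 in wild type cultures. Cmc1, an early complex IV assembly factor, gave 0.92 ± 0.16 with an adjusted p of 0.012. Mitochondrial ribosomal proteins had a median of 0.20, with 122 of 152 above wild type. Of the 152, 8 were called, all upwards, against 2.54% of all probe sets called and 2.07% called upwards. Among them were Mrps9 (0.87 ± 0.11), Mrpl45 (0.67 ± 0.098) and Mrpl17 (0.57 ± 0.086).

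For the tricarboxylic acid cycle the median was 0.19, with 30 of 37 above wild type and 1 called, against 2.54% of all probe sets. The called probe set was of Suclg2 of succinyl-CoA ligase (0.56 ± 0.085, adjusted p = 0.0076). Cytochrome c probe sets had a median of 0.24, with 3 of 5 above wild type. These were probe sets of Cycs, at 0.31, 0.24 and 0.38 (adjusted p = 0.057, 0.072 and 0.075). The other 2, among them 1445484_at of Cycs, lay below wild type, the lowest at -0.086. Of the genes of mitochondrial DNA only ND5, a complex I subunit, had a probe set with a symbol of its own, at 0.93, 0.30 and 0.37 in Cstb-/- and -0.07, 0.07, 0.10 and -0.10 in wild type cultures (0.53 ± 0.15, adjusted p = 0.058). Glycolysis, the cytosolic route to ATP, had a lower median of 0.050, with 21 of 38 above wild type and 1 called, against 2.54% of all probe sets. There Aldoc rose by 0.64 ± 0.090 (adjusted p = 0.0053), a gene that also marks astrocytes.

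**Figure D5:**
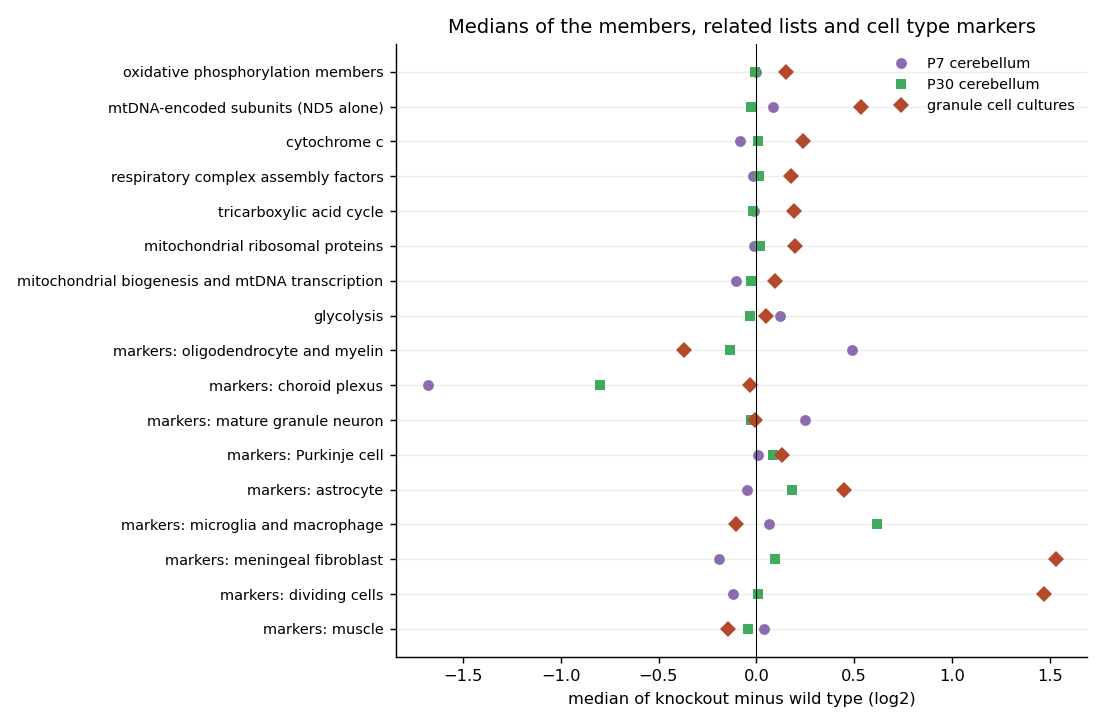
Median difference between Cstb-/- and wild type (log2, x axis) over the members, over related gene lists and over cell type marker lists (y axis) in P7 cerebellum (circles), P30 cerebellum (squares) and granule cell cultures (diamonds). In granule cells the markers of dividing cells and meningeal fibroblasts lie at 1.47 and 1.53, far to the right of the mitochondrial lists.

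Several lists of markers of other cells also differed in the cultures. Of 23 probe sets for dividing cells 18 were called upwards (median 1.47), of 17 for meningeal fibroblasts 13 (1.53) and of 33 for astrocytes 7 (0.45). The array means of these lists were 1.2 to 1.3, 1.57 to 1.67 and 0.41 to 0.60 in Cstb-/- cultures, against -0.098 to 0.065, -0.093 to 0.11 and -0.11 to 0.21 in wild type. Markers of mature granule neurons had a median of -0.0080, with 1 of 19 called, downwards. Other lists lay on the opposite side, with oligodendrocyte markers at a median of -0.37 (24 of 26 below wild type, 12 of them at an unadjusted p under 0.05) and microglia markers at -0.10 (16 of 23 below), none of either called. The part of these cells in the shift of the members was not tested.

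Promoter windows were examined because the nuclear genes of the pathway are known targets of a small set of transcription factors, among them NRF1, the ETS factor GABP and YY1. Windows of 250 bases before to 50 after the start were at hand for 74 of the 91 genes (79 windows, RefSeq, build GRCm38.p6) among 32851 windows in all. The NRF1 core (GCGC, any 2 bases, GCGC, which reads the same on both strands) stood in 25.3% of the member windows and 6.23% of all windows. The YY1 core AAGATGGC, on either strand, stood in 12.7% and 2.75%, and the ETS core CCGGAAGT, on either strand, in 6.33% and 3.89%. None of the 3 motifs contains another, and a match is a description of the letters only. In granule cells the 39 probe sets of 19 genes with an NRF1 match had a median of 0.18, and the 111 of 55 genes without one a median of 0.15.

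Windows of 5 members named above for the cultures are printed 5′ to 3′ on the strand of the gene, with matches in capitals. They show that such members differ in these letters. Not every probe set of Sdha and of Atp5g2 lay above wild type in the cultures. Sdha (chr13:74350191-74350490, minus strand) has 3 NRF1 matches, Atp5g2 (chr15:102670998-102671297, minus strand) 1 NRF1 match and Atp5pb (chr3:105959214-105959513, minus strand) 1 YY1 match. Ndufb6 (chr4:40279372-40279671, minus strand) and Ndufaf1 (chr2:119662785-119663084, minus strand) have none of the 3 motifs in these windows.
Sdha: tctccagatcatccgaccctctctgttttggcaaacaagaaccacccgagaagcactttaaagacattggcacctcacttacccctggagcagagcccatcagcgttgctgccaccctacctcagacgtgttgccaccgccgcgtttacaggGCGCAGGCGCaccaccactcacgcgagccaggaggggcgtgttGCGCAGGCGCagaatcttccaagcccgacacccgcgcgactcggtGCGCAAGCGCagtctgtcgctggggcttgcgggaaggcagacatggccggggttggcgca
Atp5g2: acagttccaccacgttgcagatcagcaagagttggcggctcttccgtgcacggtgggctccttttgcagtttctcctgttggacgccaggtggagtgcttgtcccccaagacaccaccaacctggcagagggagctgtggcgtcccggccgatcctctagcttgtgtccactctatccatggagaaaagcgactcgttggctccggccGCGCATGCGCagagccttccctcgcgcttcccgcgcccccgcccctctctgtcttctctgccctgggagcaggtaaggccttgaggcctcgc
Atp5pb: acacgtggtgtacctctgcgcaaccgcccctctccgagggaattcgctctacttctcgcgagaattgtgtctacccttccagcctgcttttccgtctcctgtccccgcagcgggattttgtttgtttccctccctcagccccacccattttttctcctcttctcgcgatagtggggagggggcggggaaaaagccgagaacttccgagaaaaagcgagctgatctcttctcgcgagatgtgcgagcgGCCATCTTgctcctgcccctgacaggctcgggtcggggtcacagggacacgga
Ndufb6: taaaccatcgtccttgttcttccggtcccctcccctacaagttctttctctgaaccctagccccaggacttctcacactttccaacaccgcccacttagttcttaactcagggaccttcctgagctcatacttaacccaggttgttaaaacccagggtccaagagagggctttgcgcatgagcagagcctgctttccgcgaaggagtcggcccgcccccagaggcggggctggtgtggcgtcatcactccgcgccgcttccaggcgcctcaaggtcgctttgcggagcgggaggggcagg
Ndufaf1: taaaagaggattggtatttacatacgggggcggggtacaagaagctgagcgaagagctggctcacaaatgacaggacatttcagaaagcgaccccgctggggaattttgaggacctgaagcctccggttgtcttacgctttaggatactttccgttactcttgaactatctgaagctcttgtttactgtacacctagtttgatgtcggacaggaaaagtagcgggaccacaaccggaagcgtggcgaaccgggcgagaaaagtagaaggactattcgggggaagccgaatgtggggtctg

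Of the factors themselves, Nrf1 by 1434627_at was at -0.66, -0.52 and -0.25 in Cstb-/- and -0.13, 0.06, 0.02 and 0.05 in wild type cultures (-0.48 ± 0.11, adjusted p = 0.030). Gabpa, the DNA-binding subunit of GABP, by 1450665_at was at 0.40, 0.62 and 0.75 in Cstb-/- and 0.15, -0.21, -0.10 and 0.15 in wild type cultures (0.59 ± 0.12, adjusted p = 0.024). These 2 probe sets lay on opposite sides of 0, and neither passed 0.01. They were picked by the smallest unadjusted p-values of their list in limma. Ssbp1, which binds single-stranded mitochondrial DNA, gave 0.77 ± 0.19 (adjusted p = 0.040). The whole list of 41 probe sets for mitochondrial biogenesis and transcription had a median of 0.093 with 26 above wild type and none called, and at an unadjusted p under 0.05 in limma 17 were higher and 6 lower.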

How the data were processed

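RNA of 21 samples was hybridised to Affymetrix Mouse Genome 430 2.0 arrays. The authors deposited log2 values made by RMA (background adjustment, quantile normalization and summarization) and then centred on the median of each probe set; here the centring was found to run within each experiment, so levels are not kept. Control probe sets (64) were left out. Differences between Cstb-/- and wild type were fitted within each experiment with limma 3.58.1 in R 4.3.3 (lmFit and eBayes, 2-sided, Benjamini-Hochberg over 45037 probe sets), and between experiments in 1 model over all groups. The fits were tested on simulated data with known changes. Gene symbols came from the platform annotation. Medians and counts were made in Python 3.11.15 and are given beside those of all probe sets, with no set test. Named were the called probe sets, in each complex the extremes without overlap (else the smallest p), known isoforms, genes whose probe sets lie 0.3 or more on both sides of 0, and at most 3 genes of each related list. Other probe sets were picked after their values were seen. Members, lists and markers were chosen with earlier results of these data known. The alternatives tried were the methods' test, robust variance, array weights, 1 fit over all groups, median-centred arrays, labelled sex, no cross-matching probe sets, gene means, no fold threshold, a replicate block and leaving out arrays.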

Additional observations from a re-analysis of the deposited data

Results flagged for a closer look

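At P7, Cstb-/- array 5 lay apart from the other Cstb-/- arrays for 2 of the named probe sets, with -0.23 for Ndufc2, against -0.10 to -0.073 in the others, and -0.37 for Ndufaf6, against -0.10 to -0.075. Of 25 groups of 4 arrays looked at, these were the 2 found. The critical value used is one that about 1 in 20 unselected groups pass, and these probe sets were selected, so no rate by chance was tested. The same array had the high 18S signal, whose part was not tested.

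Of 14 named probe sets looked at for a difference from P7, 7 were named for P30 and 7 for granule cells. All 7 named for granule cells passed the limma contrast of the genotype effects in granule cells and P7 cerebellum. Of all probe sets 20.3% passed it (13.0% upwards). These 7 were named for their granule cell differences, which enter the contrast, so their count is no support for a difference and the values are a description. The differences of the effects (granule cells minus P7, log2) were 0.82 for Ndufb6 (adjusted p = 0.0011), 0.75 for Ndufaf1 (0.00086) and 0.87 for Ndufaf2 (0.0055) in complex I and its assembly. For the other complexes they were 0.30 for Sdha (0.035), 0.78 for Uqcrb (0.0017), 0.71 for Cox7a1 (0.0027) and 0.43 for Atp5pb (0.028). The 7 named for P30 did not pass the contrast of P30 and P7, which only 0.124% of all probe sets passed.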

How the results depend on the processing

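At P30 no alternative called a member, and at P7 one did. With labelled sex as a covariate in limma 2 of 180 members were called, both lower, Sdhd (-0.43, adjusted p = 0.046) and Uqcrb (-0.39, adjusted p = 0.048). In that fit 1108 of all 45037 probe sets passed, a larger share than that of the members. In granule cells 1 member was called (0.556%, against 2.54% of all probe sets). The number was 0 by the methods' test (0.0711% of all), 10 with array weights (5.56% against 6.28%), 21 in 1 fit over all groups (11.7% against 12.7%) and 3 with labelled sex as a covariate (1.67% against 2.79%), so the members' share stayed below that of all probe sets in these fits. Chosen after seeing the data were an adjusted p under 0.05, with 14, and leaving out the 4 arrays whose sex genes go against the labels, with 0 and a median of 0.22, where no probe set of any kind was called. Leaving out 1 array gave 0 to 14 calls there, with 0.671% to 5.96% of all called, and medians of 0.11 to 0.18. The 14 (7.78%) came without Cstb-/- array 2, where the members' share lay above the 5.96% of all probe sets. In all other fits the calls stayed the same in number and the medians moved by less than the spread between arrays. The cause of these changes was not tested. The replicate number as a block left 0 members called and medians of 0.0057 at P7 and -0.0091 at P30, and same-numbered arrays did not deviate together (r of 0.0058, 0.046 and 0.17 at P7, -0.035, -0.18 and -0.034 at P30), so they share only a number. The granule cell groups share no numbers. A filter on low values could not be run because levels are not kept, which also leaves the signal over background unknown.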

Other observations

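Lists beside the oxidative phosphorylation members gave the following values in the cerebella. At P7, 29 of 38 glycolysis probe sets lay above wild type (median 0.12), none called in limma and 5 at an unadjusted p under 0.05, all above. Eno2, the neuronal enolase, was at 0.23, 0.47, 0.90 and 0.15 in Cstb-/- and 0.10, -0.01, 0.00 and -0.09 in wild type cerebella (0.44 ± 0.14, adjusted p = 0.42), without overlap. Of 41 probe sets for mitochondrial biogenesis and transcription 30 lay below wild type at P7 (median -0.11), none called and 7 at an unadjusted p under 0.05 (2 above, 5 below).

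At P30 the glycolysis median was -0.033, and both probe sets of the glucose transporter Slc2a1 that were named lay above wild type, by 0.29 ± 0.068 and 0.27 ± 0.090 (adjusted p = 0.30 and 0.54). For 1426599_a_at the values were 0.25, 0.30 and 0.34 in Cstb-/- and -0.04, 0.01 and 0.03 in wild type cerebella. Ppargc1a, a coactivator of mitochondrial biogenesis, gave -0.23 ± 0.069 and -0.29 ± 0.10 by 2 probe sets, with -0.26, -0.20 and -0.22 in Cstb-/- and -0.04, -0.02 and 0.06 in wild type cerebella for 1437751_at (adjusted p = 0.49). Suclg2 lay above wild type at P30 too (0.40 ± 0.12, adjusted p = 0.47), as in the cultures.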
